A study of Mus musculus with 8 samples.

Results

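Oxidative stress and glutathione synthesis in mouse liver are described here through 10 genes: Nfe2l2, Nqo1, Srxn1, Txnrd1, Hmox1, Gclc, Gclm, Sod1, Sod2 and Gpx1. They were taken by symbol from a count table of 19267 genes, and all 10 were present and passed the filter on low counts that left 13993 genes for testing. Liver RNA was sequenced from male C57BL/6 mice aged 9 weeks in 8 libraries, 2 for every combination of 2 genotypes and 2 diets (4 groups). The mice received a pair-fed liquid diet for 21 days, with 5% (w/v) alcohol (EtOH) or with maltose dextrin of equal calories (Control). The genotypes were wild type (WT), which per the study's methods carried Cre, and Elf4fl/fl-Villin-Cre, written Elf4-/- below, in which Cre under the villin promoter removes the Elf4 gene, which encodes an ETS transcription factor, from the gut epithelium but not from liver cells. Elf4 in liver therefore does not check the genotype labels, and its counts ranged from 6 to 36 in WT and from 6 to 34 in Elf4-/-. Each group is named by its genotype and diet, for example WT-EtOH or Elf4-/- Control. The study used them to ask how loss of intestinal Elf4 changes the response of the liver to alcohol.

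Totals ran from 6171051 to 9157362 counts per library. Elf4-/- EtOH replicates 1 and 2 stood further apart than any other pair. The standard deviation (SD) of their log2 difference was 0.68 over 9398 genes, against 0.35 to 0.50 in the other 3 groups. Levels of the genes listed above are therefore given per library for this group. Of the further pathway genes, some are given per library and others only as a log2 fold change from both libraries together. Genes of the mitochondrial genome took 23.4% to 33.7% of counts in WT-Control, 10.8% to 12.5% in WT-EtOH, 18.5% to 18.7% in Elf4-/- Control and 18.3% to 22.1% in Elf4-/- EtOH. Levels are given as CPM, counts scaled to a common library size, after TMM normalization, which allows for such shifts in composition. Hepatocyte markers were abundant in all 8 libraries, with summed levels between 32022 and 71396 CPM. Of 5 pancreatic acinar markers only 1 was among the genes counted, and it did not exceed 0.447 CPM. Of 5 intestinal epithelium markers 4 were among the genes counted, and they summed to between 165 and 255 CPM. The source of these intestinal marker counts was not tested. The labels do not say that the 2 libraries of a group came from separate mice, so the p-values measure only the spread between these libraries, which may be technical.

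The transcription factor NRF2, encoded by Nfe2l2, is held in the cytoplasm and marked for degradation by KEAP1, and this control acts mainly on the protein. When electrophiles or oxidants modify KEAP1, NRF2 accumulates, pairs with small MAF proteins and binds antioxidant response elements near its target genes, among them Nqo1, Srxn1, Txnrd1, Hmox1, Gclc and Gclm. Glutathione, the most abundant thiol of hepatocytes, is made from glutamate, cysteine and glycine by glutamate-cysteine ligase, whose catalytic subunit is GCLC and whose modifier subunit is GCLM, followed by glutathione synthetase. Alcohol oxidation in the liver, in particular by CYP2E1, yields reactive oxygen species, which superoxide dismutases convert to hydrogen peroxide and glutathione peroxidases then reduce.

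Promoter sequence of 4 of the genes is shown, to set side by side the regulator itself (Nfe2l2), a target that rose strongly with alcohol (Nqo1), a target that rose less (Txnrd1) and a target that did not pass the test (Gclm). Each line holds the 250 bases before the transcription start in RefSeq (GRCm38.p6), read along the gene's strand. Capitals mark a match to TGACNNNGC, the core of the antioxidant response element, on either strand, where the sequence is given as it reads along the gene. The regions are chr2:75704664-75704913 (minus strand) for Nfe2l2, chr8:107403206-107403455 (minus strand) for Nqo1, chr10:82858956-82859205 (plus strand) for the only 1 of the 3 Txnrd1 start sites with a match, and chr3:122245307-122245556 (plus strand) for Gclm.
Nfe2l2: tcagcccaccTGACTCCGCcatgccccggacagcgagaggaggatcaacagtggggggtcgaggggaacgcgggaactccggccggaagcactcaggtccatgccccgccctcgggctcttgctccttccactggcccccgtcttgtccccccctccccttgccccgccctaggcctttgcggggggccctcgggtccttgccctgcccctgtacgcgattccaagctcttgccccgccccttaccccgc
Nqo1: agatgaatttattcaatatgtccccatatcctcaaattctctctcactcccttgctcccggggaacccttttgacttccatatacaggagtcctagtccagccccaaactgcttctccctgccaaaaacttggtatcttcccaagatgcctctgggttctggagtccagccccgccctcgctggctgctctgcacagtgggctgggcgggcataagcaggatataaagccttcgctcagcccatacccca
Txnrd1: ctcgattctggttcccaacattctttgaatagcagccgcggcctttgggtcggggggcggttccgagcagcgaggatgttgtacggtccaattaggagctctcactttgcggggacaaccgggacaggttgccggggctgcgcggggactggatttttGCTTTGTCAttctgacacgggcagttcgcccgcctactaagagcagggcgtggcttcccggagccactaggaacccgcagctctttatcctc
Gclm: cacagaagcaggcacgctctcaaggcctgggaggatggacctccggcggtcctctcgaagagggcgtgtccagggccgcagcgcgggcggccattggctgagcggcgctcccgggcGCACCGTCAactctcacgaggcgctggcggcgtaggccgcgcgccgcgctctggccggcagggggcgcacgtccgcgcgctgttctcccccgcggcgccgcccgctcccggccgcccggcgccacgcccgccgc
The matches began 240 bases before the start in Nfe2l2, 92 bases before it in Txnrd1 and 134 bases before it in Gclm, the last 2 on the opposite strand. Of the 8 genes found in the RefSeq promoter table (Gclc and Hmox1 were not matched), 5 held a match between 250 bases before and 50 bases after a start site, Srxn1 and Sod1 being the others, and Nqo1, Sod2 and Gpx1 held none. Over all 27025 genes of the table, 14% held a match in at least 1 such window. A match is a description of these letters and not a measured binding site, and its absence from this window says nothing of NRF2 binding elsewhere.

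In WT liver, alcohol raised 5 of the 10 genes: Nqo1, Hmox1, Srxn1, Gpx1 and Txnrd1, from 1.79-fold for Txnrd1 to 13.9-fold for Nqo1. None was called lower. In comparison, 10.8% of all 13993 genes were called higher and 10.8% lower in edgeR's quasi-likelihood test at an adjusted p under 0.05. Nfe2l2 itself, Gclc, Gclm, Sod1 and Sod2 did not pass. The median log2 fold change was 0.77 over the 10 genes and 0.01 over all genes. Both WT-EtOH libraries lay above both WT-Control libraries for 8 of the 10 genes, against 34.1% of all genes.

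**Figure D1:**
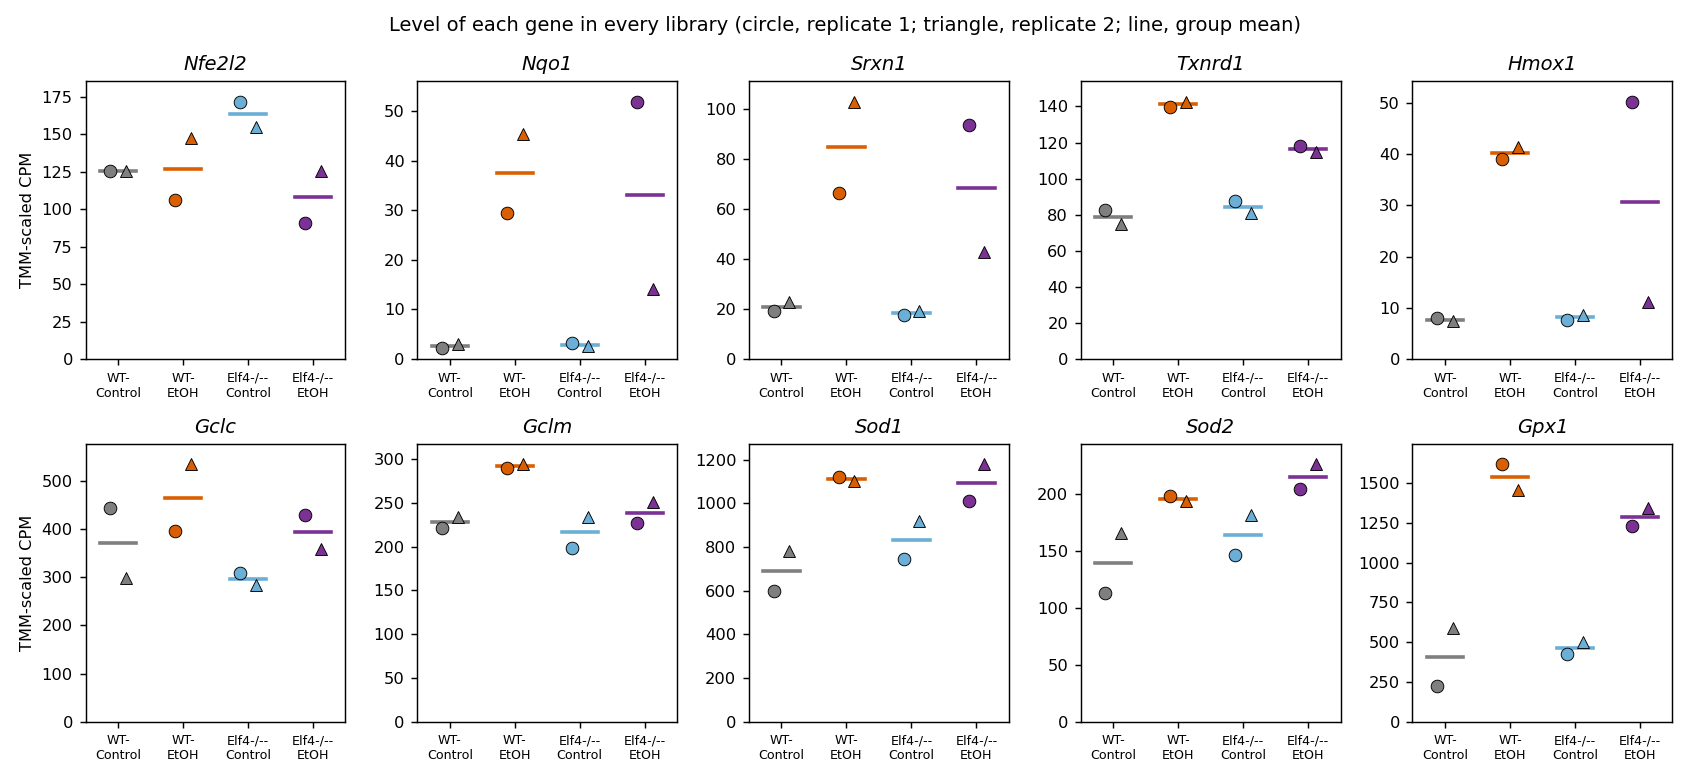
Level of each gene in every library, as TMM-scaled CPM on a linear axis from 0, in 4 groups of 2 libraries; circles are replicate 1, triangles replicate 2 and lines the group mean. Nqo1, Srxn1 and Hmox1 are low in all 4 control libraries and differ widely between the 2 Elf4-/- EtOH libraries, while Gpx1 is at 1228 CPM or more in all 4 EtOH libraries.

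Nfe2l2 (chr2:75675513-75704641, minus strand), the gene of the regulator, stood at 125 and 126 CPM in WT-Control and at 106 and 148 CPM in WT-EtOH. In Elf4-/- it stood at 172 and 155 CPM in Control and at 90.5 and 125 CPM in EtOH. The WT diets overlapped, whereas in Elf4-/- both EtOH libraries lay below both Control libraries. Its log2 fold change with alcohol was 0.02 ± 0.24 (SE) in WT (adjusted p = 0.965) and -0.60 ± 0.24 in Elf4-/- (adjusted p = 0.186), so neither passed.

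Nqo1 (chr8:107388225-107403206, minus strand) encodes a quinone reductase and is a widely used NRF2 target. In WT mice on the control diet it was barely detected, with 12 and 17 counts (2.23 and 3.12 CPM), and with alcohol it reached 234 and 446 counts (29.5 and 45.4 CPM). In Elf4-/- it had 31 and 18 counts (3.17 and 2.68 CPM) in Control and 326 and 106 counts (51.9 and 14.0 CPM) in EtOH. Every EtOH library exceeded every Control library, and the highest and the lowest EtOH values both came from Elf4-/-. The log2 fold change was 3.80 ± 0.60 in WT (95% interval 2.46 to 5.13, adjusted p = 0.00365) and 3.47 ± 0.57 in Elf4-/- (2.20 to 4.73, adjusted p = 0.0192).

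Srxn1 (chr2:152105516-152111376, plus strand) encodes sulfiredoxin, which restores over-oxidised peroxiredoxins. Its level was 19.2 and 22.8 CPM in WT-Control and 66.6 and 103 CPM in WT-EtOH. The Elf4-/- libraries gave 17.7 and 19.2 CPM in Control and 93.9 and 42.8 CPM in EtOH. Again all EtOH libraries were above all Control libraries, with Elf4-/- EtOH replicate 2 the lowest of the 4. The log2 fold change was 2.02 ± 0.36 in WT (adjusted p = 0.00545) and 1.89 ± 0.35 in Elf4-/- (adjusted p = 0.0277).

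Txnrd1 (chr10:82833951-82897712, plus strand), the gene of cytosolic thioredoxin reductase, was measured at 82.4 and 75.1 CPM in WT-Control and at 140 and 143 CPM in WT-EtOH. In Elf4-/- it was at 87.9 and 81.1 CPM in Control and at 118 and 115 CPM in EtOH. Replicates lay close together, and both Elf4-/- EtOH libraries fell between the controls and WT-EtOH. It rose in WT by a log2 fold change of 0.84 ± 0.18 (adjusted p = 0.0119). In Elf4-/- the value was 0.46 ± 0.18 (adjusted p = 0.182).

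Hmox1 (chr8:75093621-75100589, plus strand) encodes heme oxygenase 1, which degrades heme and is also controlled by the repressor BACH1. It was at 43 and 40 counts in WT-Control, a mean of 7.67 CPM, and at 39.0 and 41.4 CPM in WT-EtOH. In Elf4-/- Control it was at 7.67 and 8.64 CPM, and in Elf4-/- EtOH at 50.3 CPM in replicate 1 and 11.1 CPM in replicate 2. Replicate 1 was thus the highest of all 8 libraries, while replicate 2 lay nearer to the controls than to the other EtOH libraries. Alcohol raised Hmox1 in WT by a log2 fold change of 2.39 ± 0.55 (adjusted p = 0.0152), and in Elf4-/- the value was 1.91 ± 0.53 (adjusted p = 0.0832).

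The subunits of glutamate-cysteine ligase, the rate-limiting enzyme of glutathione synthesis, did not pass in either genotype. Gclc (chr9:77754535-77794485, plus strand) stood at 443 and 299 CPM in WT-Control and at 395 and 534 CPM in WT-EtOH, groups that overlapped. In Elf4-/- it stood at 309 and 283 CPM in Control and at 429 and 358 CPM in EtOH, without overlap. Its log2 fold change was 0.32 ± 0.27 in WT (adjusted p = 0.409) and 0.41 ± 0.27 in Elf4-/- (adjusted p = 0.405). Gclm (chr3:122245557-122270732, plus strand) stood at 221 and 234 CPM in WT-Control, 290 and 294 CPM in WT-EtOH, 199 and 234 CPM in Elf4-/- Control and 227 and 250 CPM in Elf4-/- EtOH. The WT diets separated and those of Elf4-/- overlapped. The annotation places the antisense gene Gm17494 (at most 35 counts in a library) over its exons. The pseudogene Gm6061 (at most 13 counts) overlaps them too, on the same strand. The strand setting of the counting is not given in the sources used here. The log2 fold change of Gclm was 0.36 ± 0.20 in WT (95% interval -0.09 to 0.81, adjusted p = 0.231) and 0.14 ± 0.20 in Elf4-/- (-0.31 to 0.60, adjusted p = 0.733).

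Of the superoxide dismutases, cytosolic Sod1 (chr16:90220754-90226329, plus strand) was at 596 and 782 CPM in WT-Control and at 1121 and 1101 CPM in WT-EtOH. In Elf4-/- it was at 747 and 918 CPM in Control and at 1008 and 1178 CPM in EtOH. All 4 EtOH libraries exceeded all 4 Control libraries, by log2 fold changes of 0.69 ± 0.25 in WT (adjusted p = 0.0801) and 0.39 ± 0.25 in Elf4-/- (adjusted p = 0.401), neither of which passed. Mitochondrial Sod2 (chr17:13006846-13040063, plus strand) was at 113 and 166 CPM in WT-Control, 199 and 194 CPM in WT-EtOH, 147 and 182 CPM in Elf4-/- Control and 205 and 226 CPM in Elf4-/- EtOH. Its EtOH libraries too lay above the Control libraries in both genotypes, with log2 fold changes of 0.49 ± 0.24 (adjusted p = 0.162) and 0.39 ± 0.24 (adjusted p = 0.367).

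Gpx1 (chr9:108338903-108340343, plus strand), the cytosolic glutathione peroxidase and a selenoprotein, rose from 227 and 587 CPM in WT-Control to 1617 and 1457 CPM in WT-EtOH. In Elf4-/- it was at 428 and 503 CPM in Control and at 1228 and 1341 CPM in EtOH. The groups on the different diets were far apart, and the WT-Control replicates were the least alike. The log2 fold change was 1.92 ± 0.39 in WT (adjusted p = 0.00961) and 1.47 ± 0.39 in Elf4-/- (adjusted p = 0.0722). It was 1.39 in WT without WT-Control replicate 1 and 2.76 without WT-Control replicate 2.

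Per kb of exon, the order of levels in WT-Control was Gpx1 at 282 CPM per kb, Sod1 at 174, Gclc at 98.5, Gclm at 36.2, Nfe2l2 at 33.1, Sod2 at 13.9, Txnrd1 at 11.1, Srxn1 at 7.44, Hmox1 at 4.38 and Nqo1 at 1.72 CPM per kb. The 3 genes with the lowest levels under the control diet were also the 3 with the largest estimated fold changes in WT, although the estimates of Srxn1 and Gpx1 lay within their errors of each other. Gpx1 remained the highest in WT-EtOH, at 1067 CPM per kb, and Nqo1 reached 24.1 CPM per kb, between Hmox1 at 23.0 and Srxn1 at 30.1. Lengths cover all annotated exons (GENCODE M21), from 1441 bases for Gpx1 to 10008 for Sod2, and a value is a low estimate if shorter transcripts prevail. The order depends on these lengths. Before division by length (3970 bases for Sod1), Sod1 was above Gpx1 in WT-Control, at means of 689 and 407 CPM.

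Support for the 5 WT calls depended on the libraries. Nqo1 was called whichever of the 8 libraries was left out. Without WT-Control replicate 1, Hmox1 did not pass (adjusted p = 0.0876), and without WT-Control replicate 2 neither Hmox1 (0.0896) nor Txnrd1 (0.0528) did. Without WT-EtOH replicate 1, Nqo1 and Srxn1 passed, and without WT-EtOH replicate 2 Nqo1 alone passed, with Srxn1 at an adjusted p of 0.0509 and Gpx1 at 0.0505. Sod1 passed with Elf4-/- EtOH replicate 1 left out (adjusted p = 0.0496) and with replicate 2 left out (0.0436). Fold changes of the 5 genes kept their direction in all these fits. Over all 16 alternatives, the adjusted p ranged from 2.72e-10 to 0.0372 for Nqo1, 2.45e-06 to 0.0509 for Srxn1, 1.14e-06 to 0.0539 for Gpx1, 0.00209 to 0.0882 for Txnrd1, 4.36e-05 to 0.0896 for Hmox1 and 0.0109 to 0.269 for Sod1. DESeq2 called 6 genes higher, adding Sod1 (adjusted p = 0.0294), against 9.94% of all genes. Scaled by library totals alone, 8 genes were called, but that scaling moved the median of all genes by 0.43, and the values of Gclm (0.79), Sod1 (1.12) and Sod2 (0.92) exceed those above by about that shift.

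Markers of other cell types moved in the same WT libraries. All 9 Kupffer cell markers were called higher with alcohol in WT, their summed level going from between 211 and 276 CPM to between 678 and 760 CPM. All 6 endothelial markers were called higher too (45.9 to 78.7 CPM in WT-Control and 230 to 280 CPM in WT-EtOH), as were 3 of 6 stellate cell markers (29.2 to 66.1 CPM and 229 to 299 CPM). Of the hepatocyte markers 1 of 5 was called lower, with sums of 52320 to 71396 CPM in WT-Control and 32022 to 37742 CPM in WT-EtOH. Of the red blood cell markers 2 of 5 were called lower, with sums of 130 to 183 CPM and 89.1 to 107 CPM. None of these markers was at 0 in all libraries. Their part in the rise of Nqo1, Hmox1, Srxn1, Gpx1 and Txnrd1 was not tested, and in whole liver fewer cells of a type and less RNA per cell cannot be told apart.

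In Elf4-/- liver, alcohol raised 2 of the 10 genes, Nqo1 (11.1-fold) and Srxn1 (3.70-fold), and lowered none by the same test. Of all genes, 1.71% were called higher and 1.18% lower. Both Elf4-/- EtOH libraries lay above both Control libraries for 8 of the 10 genes, against 25.8% of all genes. The median log2 fold change was 0.44 over the 10 genes and 0.01 over all genes. DESeq2 called 4 higher, adding Hmox1 (adjusted p = 0.00400) and Gpx1 (adjusted p = 0.00125), against 3.66% of all genes.

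**Figure D2:**
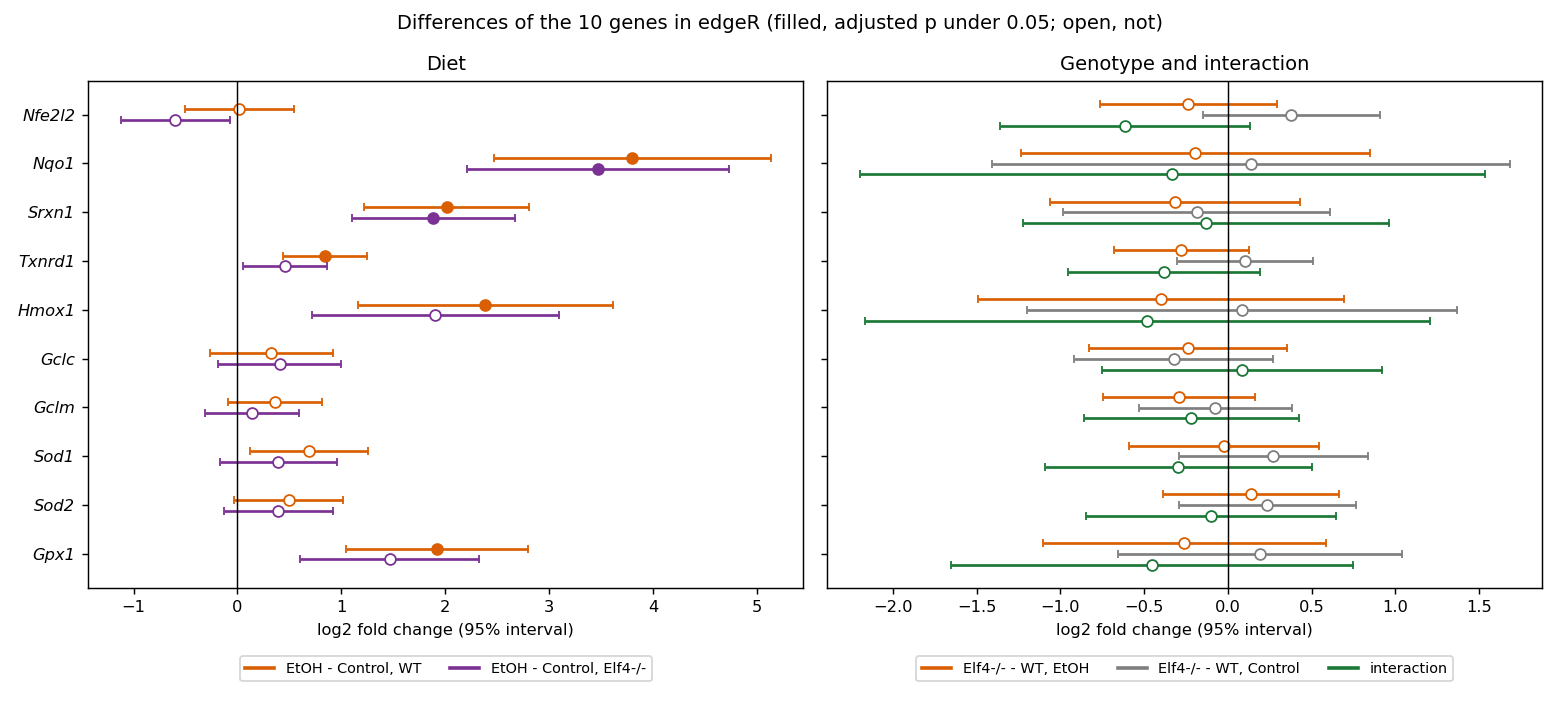
Log2 fold changes of the 10 genes with 95% intervals in edgeR, for alcohol in each genotype (left) and for genotype under each diet and the interaction (right); filled points passed an adjusted p of 0.05 and open points did not. In WT 5 points are filled and in Elf4-/- 2, whereas all points on the right are open.

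The alcohol response in Elf4-/- rested on 2 unlike libraries. Relative to the mean of the Elf4-/- Control libraries, Hmox1 was higher by 2.62 on the log2 scale in replicate 1 and by 0.45 in replicate 2. For Nqo1 the same differences were 4.15 and 2.26. For Srxn1 they were 2.35 and 1.21. In these 3 genes replicate 1 passed both WT-EtOH libraries, which lay 2.34 and 2.43 above WT-Control for Hmox1, and replicate 2 lay below both. The other 7 genes did not share this split, since their 2 Elf4-/- EtOH libraries differed by at most 0.47. Gpx1, for example, lay 1.40 and 1.53 above Control.

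**Figure D3:**
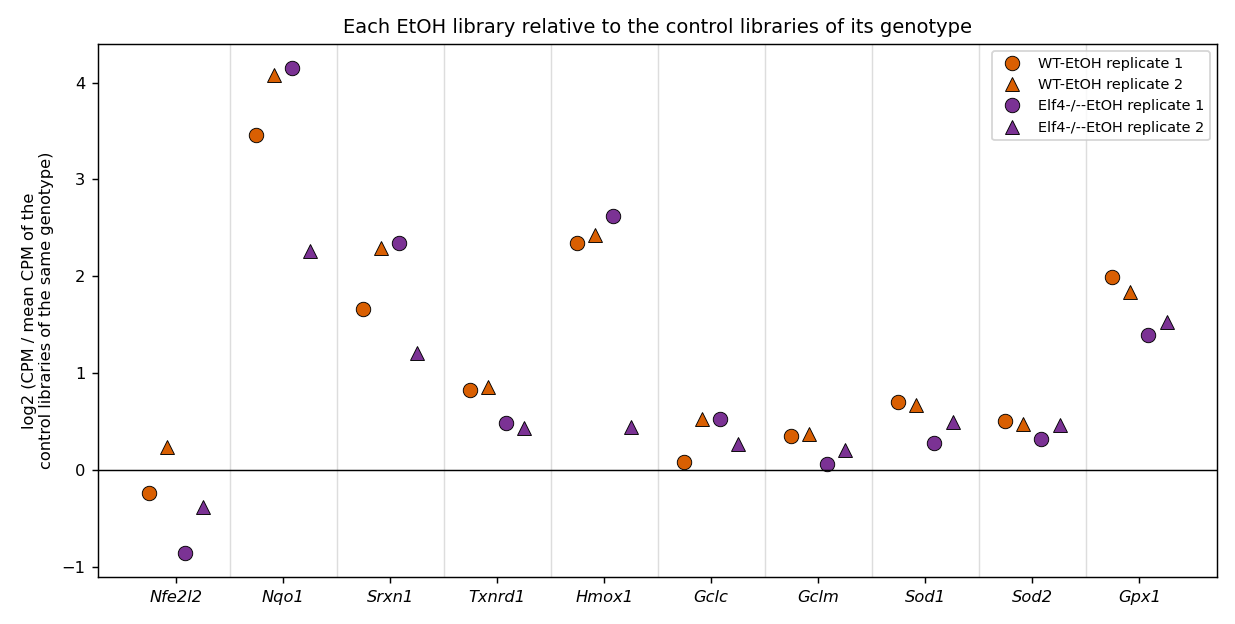
Each EtOH library relative to the mean CPM of the 2 Control libraries of its genotype, on a log2 scale, for the 10 genes; circles are replicate 1 and triangles replicate 2. For Nqo1, Srxn1 and Hmox1 the Elf4-/- EtOH replicates lie far apart, at 4.15 and 2.26, 2.35 and 1.21, and 2.62 and 0.45.

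Leaving out a library accordingly moved these calls. Without Elf4-/- EtOH replicate 1, the log2 fold change of Nqo1 was 2.24 (adjusted p = 0.0129), that of Srxn1 1.21 (0.0566) and that of Hmox1 0.45 (0.399). Without Elf4-/- EtOH replicate 2, they were 4.11 (8.01e-05), 2.33 (0.000401) and 2.61 (8.38e-05). None of the 10 genes passed without Elf4-/- Control replicate 1 or without replicate 2, although Nqo1 still had log2 fold changes of 3.60 and 3.36 there. Gpx1 passed as well with WT-Control replicate 1 left out (adjusted p = 0.0294) or replicate 2 left out (0.0293). Over all 16 alternatives the adjusted p ranged from 4.60e-09 to 0.200 for Nqo1, 3.50e-05 to 0.224 for Srxn1, 8.38e-05 to 0.399 for Hmox1 and 0.00125 to 0.312 for Gpx1. Summed Kupffer cell markers were 293 and 275 CPM in the Elf4-/- EtOH libraries, against 204 and 198 CPM in Elf4-/- Control, and 2 of the 9 markers were called higher. Other summed markers differed more between Elf4-/- EtOH replicates 1 and 2, at 14.0 and 1.99 CPM for neutrophils, 311 and 183 CPM for stellate cells, 191 and 117 CPM for endothelial cells and 39165 and 52763 CPM for hepatocytes. The part of these cell types in the split of Nqo1, Srxn1 and Hmox1 was not tested.

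Comparing the genotypes under alcohol asks whether intestinal loss of Elf4 changed these genes in the alcohol-fed liver. No member passed in edgeR, and none had an unadjusted p under 0.05, where 0.143% and 10.5% of all genes did. DESeq2 likewise called 0 of the 10, and 1.31% of all genes. Log2 differences (Elf4-/- minus WT) ran from -0.40 for Hmox1 to 0.14 for Sod2, and the smallest adjusted p was 0.646. They were negative for 9 of the 10 genes, with a median of -0.25, against 0.001 over all genes. All 10 genes were read from the same libraries, so these signs are not independent. In the same comparison 2 of 9 Kupffer cell markers were called lower in Elf4-/-, with sums of 275 to 293 CPM against 678 to 760 CPM in WT-EtOH, and their part in these differences was not tested. The intervals are wide for the genes with unlike replicates, at -1.49 to 0.69 for Hmox1 and -1.24 to 0.85 for Nqo1, and narrower for Txnrd1, at -0.68 to 0.12. Without Elf4-/- EtOH replicate 1, Hmox1 was lower in Elf4-/- by a log2 difference of -1.85 (adjusted p = 0.00970). Without Elf4-/- EtOH replicate 2, its difference was 0.31 (adjusted p = 0.516), so a single library set even the direction. Over all 16 alternatives its adjusted p ranged from 0.00970 to 0.999, and it passed in 1 of them.

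Under the control diet, which asks for a genotype difference without alcohol, none of the 10 genes passed in edgeR, and none reached an unadjusted p under 0.05, beside 0.0143% and 7.31% of all genes. DESeq2 called 0 of the 10, beside 0.668% of all genes. The largest differences were 0.38 ± 0.24 for Nfe2l2, whose Elf4-/- libraries (172 and 155 CPM) lay above those of WT (125 and 126 CPM), and -0.32 ± 0.27 for Gclc, whose libraries overlapped. The smallest adjusted p was 0.792. Differences were positive for 7 of the 10 genes, with a median of 0.12, against 0.01 over all genes. The interval of Nfe2l2 was -0.15 to 0.91 and that of Gclc -0.92 to 0.27.

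The interaction, the alcohol response in Elf4-/- minus that in WT, passed for none of the 10 genes. Its estimate was negative for 9 of them, with a median of -0.31, against -0.002 over all genes. edgeR called 0% of all genes and found 10.1% at an unadjusted p under 0.05, with none of the 10 among them. DESeq2 called 0 of the 10, and 1.26% of all genes. The estimate furthest from 0 was that of Nfe2l2, at -0.61 ± 0.33 (95% interval -1.36 to 0.13, adjusted p = 0.583), followed by Hmox1 at -0.48 ± 0.76. A call of Nqo1 or Srxn1 in both genotypes, and of Hmox1, Txnrd1 and Gpx1 in WT alone, is thus not a measured difference between the genotypes. Without Elf4-/- EtOH replicate 1 the interaction of Hmox1 was -1.93 and passed (adjusted p = 0.0472), and without replicate 2 it was 0.23 (adjusted p = 0.772). Over all 15 alternatives its adjusted p ranged from 0.0472 to 0.993, and it passed in 1 of them.

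Beyond the 10 genes, 72 others of the pathway were listed in 6 groups, of which 68 were tested. In WT, 26 were called higher and 6 lower with alcohol, with a median log2 fold change of 0.71, where 10.8% of all genes were called in each direction. In Elf4-/- 9 were called higher and 1 lower, with a median of 0.46, where 1.71% and 1.18% of all genes were called. Library totals alone gave 40 higher and 2 lower in WT, where 3416 of all genes were called higher and 634 lower. A fit of only the 4 Elf4-/- libraries gave 0 in either direction, where 43 of all genes were called. Fewer list genes were called in WT when any WT library or either Elf4-/- Control library was left out, and more without either Elf4-/- EtOH library. In Elf4-/- fewer were called without either Control library, without EtOH replicate 1 or when any WT library was left out, and more without EtOH replicate 2. Calls over all genes moved the same way in each of these fits, so the moves are not particular to the lists.

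Among 9 regulators of NRF2, 3 were called higher and 2 lower in WT. Keap1, the gene of the NRF2 inhibitor, did not pass in WT (0.20, adjusted p = 0.482) or in Elf4-/- (0.40, adjusted p = 0.265). Sqstm1, whose product p62 binds KEAP1, rose in both, by log2 fold changes of 0.95 (adjusted p = 0.0389) and 1.24 (adjusted p = 0.0492). Cul3, the scaffold of the ubiquitin ligase that KEAP1 serves, rose in WT by 0.72 (adjusted p = 0.0223), with 0.52 in Elf4-/- (adjusted p = 0.137). The small MAF gene Mafk fell in WT, with a log2 fold change of -1.01 (adjusted p = 0.0298), and did not pass in Elf4-/-, at 0.31 (adjusted p = 0.561). Mafg, also a small MAF gene, fell in both, with log2 fold changes of -0.61 in WT (adjusted p = 0.0490) and -0.91 in Elf4-/- (adjusted p = 0.0414). The remaining small MAF gene of the list, Maff, had positive values that did not pass, at 1.36 in WT (adjusted p = 0.0579) and 0.33 in Elf4-/- (adjusted p = 0.716). Bach1, the gene of the repressor BACH1, rose in WT by 0.58 (adjusted p = 0.0470), with -0.08 in Elf4-/- (adjusted p = 0.847). These calls depended on the libraries: Cul3 passed only while all 4 WT libraries were kept, and Sqstm1 passed in 2 of 8 fits that left out a library in WT and in 1 of 8 in Elf4-/-. Mafk passed in 3 of those 8 fits in WT, and Mafg in 2 of 8 in WT and 3 of 8 in Elf4-/-.

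Of 11 further genes of glutathione synthesis, recycling and breakdown tested, 4 were called higher and 3 lower in WT, and 1 higher in Elf4-/-. Gsr, whose product glutathione reductase regenerates reduced glutathione, stood at 27.7 and 30.3 CPM in WT-Control and at 94.6 and 109 CPM in WT-EtOH, and at 35.4 and 33.4 CPM in Elf4-/- Control and 108 and 57.9 CPM in Elf4-/- EtOH. It rose by log2 fold changes of 1.81 (adjusted p = 0.00351) and 1.27 (adjusted p = 0.0414). Gss, glutathione synthetase, did not pass, at 0.51 (adjusted p = 0.145) and 0.48 (adjusted p = 0.269). Cbs, which feeds homocysteine toward cysteine, fell in WT, with a log2 fold change of -1.57 (adjusted p = 0.00281). So did Chac2, which breaks glutathione down, with -1.42 (adjusted p = 0.0173). In Elf4-/- they did not pass, at -0.31 (adjusted p = 0.447) and -0.82 (adjusted p = 0.188). Gsr and Cbs were called in WT whichever library was left out, Chac2 only while all 4 WT libraries were kept, and Gsr in Elf4-/- in 1 of the 8 fits that left out a library. In WT the reductase that recycles glutathione thus rose, while Gclc, Gclm and Gss, the genes that synthesise it, did not pass.

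**Figure D4:**
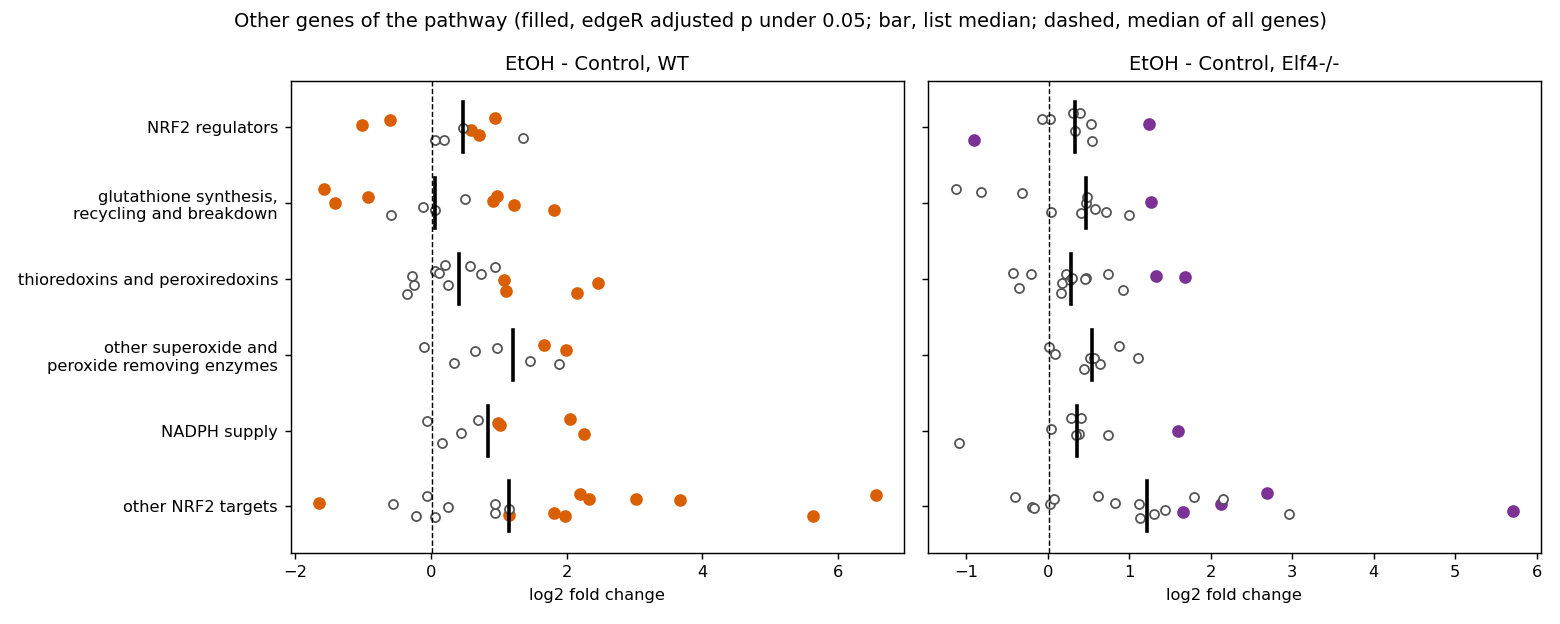
Log2 fold change with alcohol of the 68 tested genes of 6 pathway lists, in WT (left) and Elf4-/- (right); filled points passed an adjusted p of 0.05 in edgeR, bars are list medians and the dashed line is the median of all genes at 0.01. The list of other NRF2 targets has medians of 1.15 and 1.22, and its genes spread from below 0 to above 5 in both panels.

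Thioredoxins and peroxiredoxins had 4 of 14 genes called higher in WT and 2 in Elf4-/-, none lower. Prdx1, a peroxiredoxin, rose by 2.16 (adjusted p = 0.00248) and 1.69 (adjusted p = 0.0223), and mitochondrial Prdx3 by 1.33 in Elf4-/- (adjusted p = 0.0492), with 0.94 in WT (adjusted p = 0.0515). Txnip, an inhibitor of thioredoxin, rose in WT by 2.46 (adjusted p = 0.0193), with 0.45 in Elf4-/- (adjusted p = 0.695). Its Elf4-/- EtOH libraries lay at 202 and 40.0 CPM, on either side of the Elf4-/- Control libraries at 98.2 and 78.0 CPM. Among the other enzymes that remove superoxide and peroxide, 2 of 8 were called higher in WT: Gpx4, which reduces lipid peroxides, 3.99-fold (adjusted p = 0.00355), and extracellular Sod3 by a log2 fold change of 1.66 (adjusted p = 0.00881). In Elf4-/- they did not pass, at 1.11 (adjusted p = 0.0756) and 0.57 (adjusted p = 0.310). Cat, catalase, did not pass in either genotype (-0.11 and 0.09, adjusted p = 0.797 and 0.876). Prdx1 and Gpx4 were called in WT whichever library was left out, but Prdx1 in Elf4-/- passed in 4 of the 8 fits, not without either WT-EtOH or either Elf4-/- Control library (largest adjusted p = 0.206). Txnip passed only while all 4 WT libraries were kept, and Sod3 did not pass without WT-Control replicate 2 or WT-EtOH replicate 2. Prdx3 in Elf4-/- passed in 1 of the 8 fits, and its log2 fold change was 0.73 without Elf4-/- EtOH replicate 1.

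Of 8 genes that supply NADPH, 4 were called higher in WT and 1 in Elf4-/-. Me1, malic enzyme, rose in WT by 2.26 (adjusted p = 0.00170) and did not pass in Elf4-/-, at 0.40 (adjusted p = 0.393). Its level was 43.7 and 34.9 CPM in WT-Control, 140 and 236 CPM in WT-EtOH, 104 and 103 CPM in Elf4-/- Control and 142 and 133 CPM in Elf4-/- EtOH. Neither its genotype difference under the control diet (1.40, adjusted p = 0.176) nor its interaction (-1.85, adjusted p = 0.220) passed. Among the same genes, mitochondrial Idh2 rose by 2.05 in WT (adjusted p = 0.00182) and by 1.60 in Elf4-/- (adjusted p = 0.0167). Of 18 other genes listed as NRF2 targets, 9 were called higher and 1 lower in WT, and 4 higher in Elf4-/-. The 1 called lower was Trib3 (-1.66, adjusted p = 0.0116). The list also holds Hmox2 and Gdf15, and control of its genes by NRF2 was not tested here. Cyp2a5, a cytochrome P450, rose by 3.67 (adjusted p = 0.00150) and 2.69 (adjusted p = 0.0161), the latter being 2.05 without Elf4-/- EtOH replicate 1. Me1, Idh2 and Cyp2a5 were called in WT whichever library was left out, and Idh2 and Cyp2a5 in Elf4-/- unless an Elf4-/- Control library was left out. The carbonyl reductase gene Cbr3 was close to absent in WT-Control (0 and 2 counts) and clearly detected in WT-EtOH (95 and 256 counts), at least 34.3-fold higher against a floor of 3 counts per library. The Elf4-/- libraries held 8 and 2 of its counts in Control and 20 and 17 in EtOH (log2 fold change 2.15, adjusted p = 0.115). Its genotype difference under alcohol was -2.81 (adjusted p = 0.100), which did not pass, nor did its interaction (adjusted p = 0.310). The transporter gene Abcc4 went from 6 and 2 counts to 202 and 488 with alcohol in WT. In Elf4-/- it went from 4 and 5 counts to 312 and 76. This split between replicates had the same direction as those of Nqo1, Srxn1 and Hmox1. Other pathway genes in Elf4-/- EtOH also split this way, among them Cyp2a5 (5373 and 2552 CPM), Prdx3 (164 and 81.3 CPM) and Sqstm1 (467 and 260 CPM). Keap1, Gss, Cat, Cbs, Chac2 and Mafg went the other way, with Chac2 at 18.5 and 44.9 CPM. In the genotype comparisons and the interaction edgeR called 0 of the 68. For alcohol, control diet and interaction in that order, 8, 6 and 12 had an unadjusted p under 0.05, beside 10.5%, 7.31% and 10.1% of all genes. DESeq2 called 2, 1 and 3, beside 1.31%, 0.668% and 1.26% of all genes. For genotype under alcohol the smallest edgeR adjusted p of the 68 was 0.0646, for Cth of the glutathione list, at 1.56. With alcohol Cth changed by -0.93 in WT (adjusted p = 0.0298) and 0.72 in Elf4-/- (adjusted p = 0.148). Its interaction was 1.64 (adjusted p = 0.229).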

How the data were processed

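Liver RNA-seq libraries (8, 2 per group) were analysed from the authors' deposited table of read counts per gene symbol. Per the study's methods and the submitters' processing notes, the authors mapped reads to mm10 with HISAT2, sorted them with SAMtools, counted them with HTSeq and tested them with DESeq2. Versions, the strand setting and the annotation are not given in the sources used here. Reads of overlapping genes, such as Gclm with Gm17494 and Gm6061, may therefore have been lost or shared. The deposited counts are whole numbers and not normalized. A total of 968 blank rows and 2 empty columns were left out. Libraries held 6171051 to 9157362 counts, and no 2 were identical.

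Genes were filtered with filterByExpr by group (13993 of 19267 kept), scaled by TMM and fitted in edgeR 4.0.16 (R 4.3.3) with glmQLFit and glmQLFTest on all 8 libraries in 4 groups without covariates. P-values were adjusted by Benjamini-Hochberg over all 13993 genes, with a threshold of 0.05. The common biological coefficient of variation was 22.7%, and intervals are 95%. The study's methods do not state the design of its test, and DESeq2 1.42.0 (Wald test) was an alternative, beside other scalings, filters, the 4 compared libraries alone, a replicate block and the omission of each library. Positions and exonic lengths came from GENCODE M21 (GRCm38), with a length for 97.4% of genes, and promoters from RefSeq. The edgeR procedure was tested on simulated data before use.

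The 10 genes, the pathway lists and the marker lists were chosen with earlier results of these data known. All 10 genes were named in every comparison. From each pathway list up to 3 genes per comparison were eligible, those past the threshold with the largest log2 fold change and no overlap between the groups, and Keap1, Gss, Gsr and Cat were named in both diet comparisons whatever their values. Some genes were named apart from this rule. Cth had the smallest adjusted p of the lists for genotype under alcohol. Trib3 was the only gene of its list called lower in WT. Maff and Bach1 were named to complete the small MAF genes and the regulators called higher in WT. Hmox2 and Gdf15 were named only as members of their list. The diet and genotype comparisons share libraries, so their values are given side by side. Slc7a11 and Ggt1 of the glutathione list were not analysed here.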

Additional observations from a re-analysis of the deposited data

How the results depend on the processing

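Of the 10 genes, 5 were called with alcohol in WT and 2 in Elf4-/-. Scaling by library totals alone gave 8 in WT and 2 in Elf4-/-. In Elf4-/-, no filter gave 4, DESeq2 gave 4, and a fit of only the 4 compared libraries gave 0. Leaving out each library in turn gave 1 to 6 in WT, 0 to 3 in Elf4-/-, and 0 to 1 for genotype under alcohol and for the interaction. Over all genes, calls numbered 3025 for alcohol in WT (1517 higher, and 3416 of 4050 higher with library totals alone) and 621 to 4002 without a library. For alcohol in Elf4-/- they numbered 404, with 252 under the replicate block, 43 in the 4 libraries, 811 by DESeq2 and 4 to 1664 without a library. For genotype under alcohol they numbered 20, with 50 without a filter, 13 at a mean of at least 50 counts, 10 under the block, 0 in the 4 libraries, 180 by DESeq2 and 0 to 350 without a library. For genotype under the control diet they numbered 2, with 5 by library totals, 14 without a filter, 0 at a mean of at least 50 counts, 25 in the 4 libraries, 79 by DESeq2 and 0 to 48 without a library. For the interaction they numbered 0, with 7 without a filter, 111 by DESeq2 and 0 to 112 without a library.

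Library totals alone turned the direction of 5 values that had not passed: Sod2 for genotype under alcohol (-0.0935), Gclm (0.15) and Srxn1 (0.0417) for genotype under the control diet, Gclc for the interaction (-0.40), and Cat for alcohol in WT (0.32). It moved the median of all genes by 0.43 for alcohol in WT, -0.03 for alcohol in Elf4-/-, -0.23 and 0.23 for genotype under alcohol and control diet, and -0.46 for the interaction. Leaving out a library turned other values that had not passed. With alcohol, Nfe2l2 in WT ranged from -0.25 to 0.24 and Cat in Elf4-/- from -0.11 to 0.32. For genotype under alcohol the ranges were -0.50 to 0.0171 for Nfe2l2, -1.42 to 0.46 for Nqo1, -0.99 to 0.13 for Srxn1, -1.85 to 0.31 for Hmox1 and -0.15 to 0.0848 for Sod1. For genotype under the control diet they were -0.0814 to 0.40 for Nqo1, -0.20 to 0.0389 for Gclm, -0.00027 to 0.17 for Hmox1, -0.0133 to 0.54 for Sod2 and -0.33 to 1.04 for Gpx1. For the interaction they were -1.56 to 0.31 for Nqo1, -0.23 to 0.34 for Gclc, -0.80 to 0.32 for Srxn1, -1.93 to 0.23 for Hmox1, -0.40 to 0.15 for Sod2 and -1.30 to 0.0756 for Gpx1. The cause was not tested.

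Libraries of equal replicate number showed no broad shared pattern: correlations of the replicate differences between groups ran from -0.134 to 0.114 over 9398 genes. Such values cannot exclude a pairing whose effect is small or touches few genes, and the labels do not state one. Where a library is left out, the lone sample of its group is assumed to vary like those of the other groups. With the replicate block, 5 of the 10 genes were called in WT and 2 in Elf4-/-. With 2 libraries a group the precision differed by gene, with standard errors of the genotype difference under alcohol from 0.18 to 0.49 on the log2 scale.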
